A study of Mus musculus with 18 samples.

Results

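The CC chemokines described here are 10 secreted leukocyte attractants, Ccl2, Ccl3, Ccl5, Ccl6, Ccl7, Ccl8, Ccl9, Ccl11, Ccl17 and Ccl24. They were read from the probe sets whose platform annotation named 1 of these genes alone, which gave 12 probe sets of the 45101 on the array and 10 of the 18194 genes so named. Ccl6 and Ccl9 had a pair of probe sets each, and the other 8 genes had 1. All 10 genes passed the filter on dim probe sets and were tested among 12405 genes. RNA from the right lung of 3 inbred mouse strains, C3H/HeJ, A/J and C57BL/6J (the last also spelled C57BL6/J in the labels), was measured on single-colour Affymetrix arrays, 18 in all and 3 in each of 6 groups. The irradiated mice were exposed at 8 weeks of age to 18 Gy over the whole thorax, from a Cesium-137 source with the rest of the body shielded, and were killed when moribund with weight loss and rapid breathing. Irradiated A/J mice were then 30 to 32 weeks old, 22 to 24 weeks after exposure. Irradiated C57BL/6J mice were 28 to 30 weeks old, 20 to 22 weeks after exposure. Irradiated C3H/HeJ mice were 20 to 22 weeks old, 12 to 14 weeks after exposure. Controls of each strain were untreated and 15 to 26 weeks old, so irradiated A/J and C57BL/6J mice were older than their controls and irradiated C3H/HeJ mice lay within the control range. Exposure, moribund state and, in A/J and C57BL/6J, age cannot be told apart, and the interval after exposure goes with the strain. The labels name 3 moribund mice a strain but speak only of samples from control mice, so the spread among controls may be technical in part.

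CC chemokines carry adjacent cysteines near their amino terminus, bind heparan sulphate on vessel walls and matrix, and signal through G protein-coupled receptors on leukocytes. In lung they are known for drawing monocytes (Ccl2, Ccl7), eosinophils (Ccl11, Ccl24) and T cells (Ccl17, Ccl5) out of the blood, and several of them (Ccl6, Ccl8, Ccl9) are made in quantity by macrophages. Many members share a receptor, and most lie next to each other in the genome. In the RefSeq gene order Ccl2, Ccl7, Ccl11, Ccl12 and Ccl8 follow each other on chromosome 11, and Ccl5, Ccl9, Ccl6, Ccl3 and Ccl4 form a later run on the same chromosome. Ccl24 lies beside Ccl26 on chromosome 5, and Ccl17 beside Ccl22 on chromosome 8.

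The RefSeq promoter table (build GRCm38.p6, the reference genome and not these strains) held 5 of the 10 members, Ccl3, Ccl6, Ccl8, Ccl9 and Ccl17. The 250 bases before the annotated start are shown for Ccl8, Ccl9 and Ccl6, the 3 members that rose after irradiation in every strain, and for Ccl17, which differed between untreated strains. They lie at chr11:82114935-82115184, plus strand, at chr11:83578637-83578886, minus strand, at chr11:83593088-83593337, minus strand, and at chr8:94810203-94810452, plus strand. Capitals mark matches to the motifs named after the sequences and, in Ccl9 and Ccl6, the longest run of letters that both share.
Ccl8: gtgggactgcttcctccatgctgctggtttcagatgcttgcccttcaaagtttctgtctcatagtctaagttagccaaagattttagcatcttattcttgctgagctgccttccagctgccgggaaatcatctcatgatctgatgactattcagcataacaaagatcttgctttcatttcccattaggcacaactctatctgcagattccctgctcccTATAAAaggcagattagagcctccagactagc
Ccl9: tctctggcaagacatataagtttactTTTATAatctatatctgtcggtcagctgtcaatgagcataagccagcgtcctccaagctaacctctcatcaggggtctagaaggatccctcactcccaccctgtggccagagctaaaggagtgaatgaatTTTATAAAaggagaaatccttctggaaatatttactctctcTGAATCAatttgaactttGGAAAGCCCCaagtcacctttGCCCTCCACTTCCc
Ccl6: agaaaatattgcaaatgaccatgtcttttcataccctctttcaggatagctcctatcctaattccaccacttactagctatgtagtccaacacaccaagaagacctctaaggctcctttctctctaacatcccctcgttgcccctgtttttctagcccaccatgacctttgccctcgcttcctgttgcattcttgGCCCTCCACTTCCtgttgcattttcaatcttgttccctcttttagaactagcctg
Ccl17: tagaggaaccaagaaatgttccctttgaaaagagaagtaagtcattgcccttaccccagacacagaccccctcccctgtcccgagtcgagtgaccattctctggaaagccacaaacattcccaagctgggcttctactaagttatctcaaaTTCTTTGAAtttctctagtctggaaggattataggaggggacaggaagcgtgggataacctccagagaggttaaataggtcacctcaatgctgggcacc
The motifs searched on both strands were TATAAA, the NF-kB site, TTCNNNGAA for STAT factors, TGANTCA for AP-1 and the interferon response element. Of 32851 promoter stretches of this length, 12.4% held TATAAA, 7.25% the NF-kB site, 7.02% TTCNNNGAA, 6.75% TGANTCA and 2.98% the interferon response element. In Ccl8, TATAAA began 32 bases before the start. Ccl9 held 3 matches to TATAAA, beginning 224, 94 and 92 bases before the start, the last pair overlapping on opposite strands. Its AP-1 match began 53 and its NF-kB match 35 bases before the start. Ccl17 held the STAT letters 99 bases before the start. The Ccl6 stretch held none of the 5 motifs, and its capitals mark only the 13 bases shared with Ccl9. These matches describe letters and are not evidence of binding.

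Values are the authors' array intensities, with 7 added before the log2 and then quantile-normalized, and are called normalized log2 values here. Their precision is limited by the 3 arrays of a group. Several arrays stood apart. The squamous keratin Krt4 read 11.52 and 11.75 in C57BL/6J controls 1 and 3 and 10.91 in irradiated A/J array 3, against 3.06 to 6.13 in the other 15, and skeletal muscle genes were high in the same 3 arrays. At 34 probe sets that separate untreated C3H/HeJ from A/J mice, irradiated C3H/HeJ array 3 lay at a median of 0.477 of the way toward A/J, against 0.0272 and 0.0376 for the other irradiated C3H/HeJ arrays, so that array went against its strain label. The 5' to 3' ratio of actin, a sign of intact RNA, was 0.413 to 0.551 in irradiated A/J arrays and 0.677 to 0.766 in all others. Its part in the A/J results was not tested. Trimmed mean signal ran from 46.5 to 176. Without scaling between arrays the median effect over all genes moved from 0.09 to 0.56 on the log2 scale in A/J and from 0.01 to 0.61 in C3H/HeJ. Genes called higher and lower then numbered 2312 and 144 in A/J and 3195 and 71 in C3H/HeJ. With each array centred on its median they numbered 4135 and 536 in A/J and 2960 and 467 in C3H/HeJ. A fall given below refers to quantile-normalized values unless another scaling is named.

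After irradiation these CC chemokines rose most widely in C3H/HeJ lungs. There 9 of 10 were higher at an adjusted p under 0.05 in limma and none was lower. Across all 12405 genes 12.9% were called higher and 10.6% lower in that comparison. In A/J lungs 6 members were called higher and 1, Ccl5, lower, against 15.1% and 8.91% of all genes. In C57BL/6J lungs 3 members were called higher and none lower, against 3.01% and 2.36% of all genes. The members were chosen with earlier results of these data known, so their counts are a description and not a test. Of the other CC ligands measured, given further below, a smaller share was called higher in each strain. The median log2 effect over the 10 members was 0.94 in A/J, 0.52 in C57BL/6J lungs and 2.40 in C3H/HeJ, and that over all genes was 0.09, -0.01 and 0.01. Ccl6, Ccl8 and Ccl9 were called higher in all 3 strains, as were 203 genes in all, or 1.64%. Ccl2, Ccl7 and Ccl11 were called higher in A/J and C3H/HeJ, and Ccl3, Ccl17 and Ccl24 in C3H/HeJ alone. Of these, Ccl2, Ccl3, Ccl7, Ccl11 and Ccl24 passed the filter on dim probe sets only through irradiated arrays. With no filter, 6 members were called higher and 1 lower in A/J, 3 higher in C57BL/6J and 9 higher in C3H/HeJ. Whether a member's response differed between strains is a separate test, given after the members. The irradiated arrays lay entirely above the controls for 6 members in A/J, 4 in C57BL/6J lungs and 9 in C3H/HeJ, where 25.2%, 11.7% and 21.5% of all genes did so. In bulk lung RNA, a change in the number of cells that make a chemokine cannot be told apart from a change in RNA per cell.

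**Figure D1:**
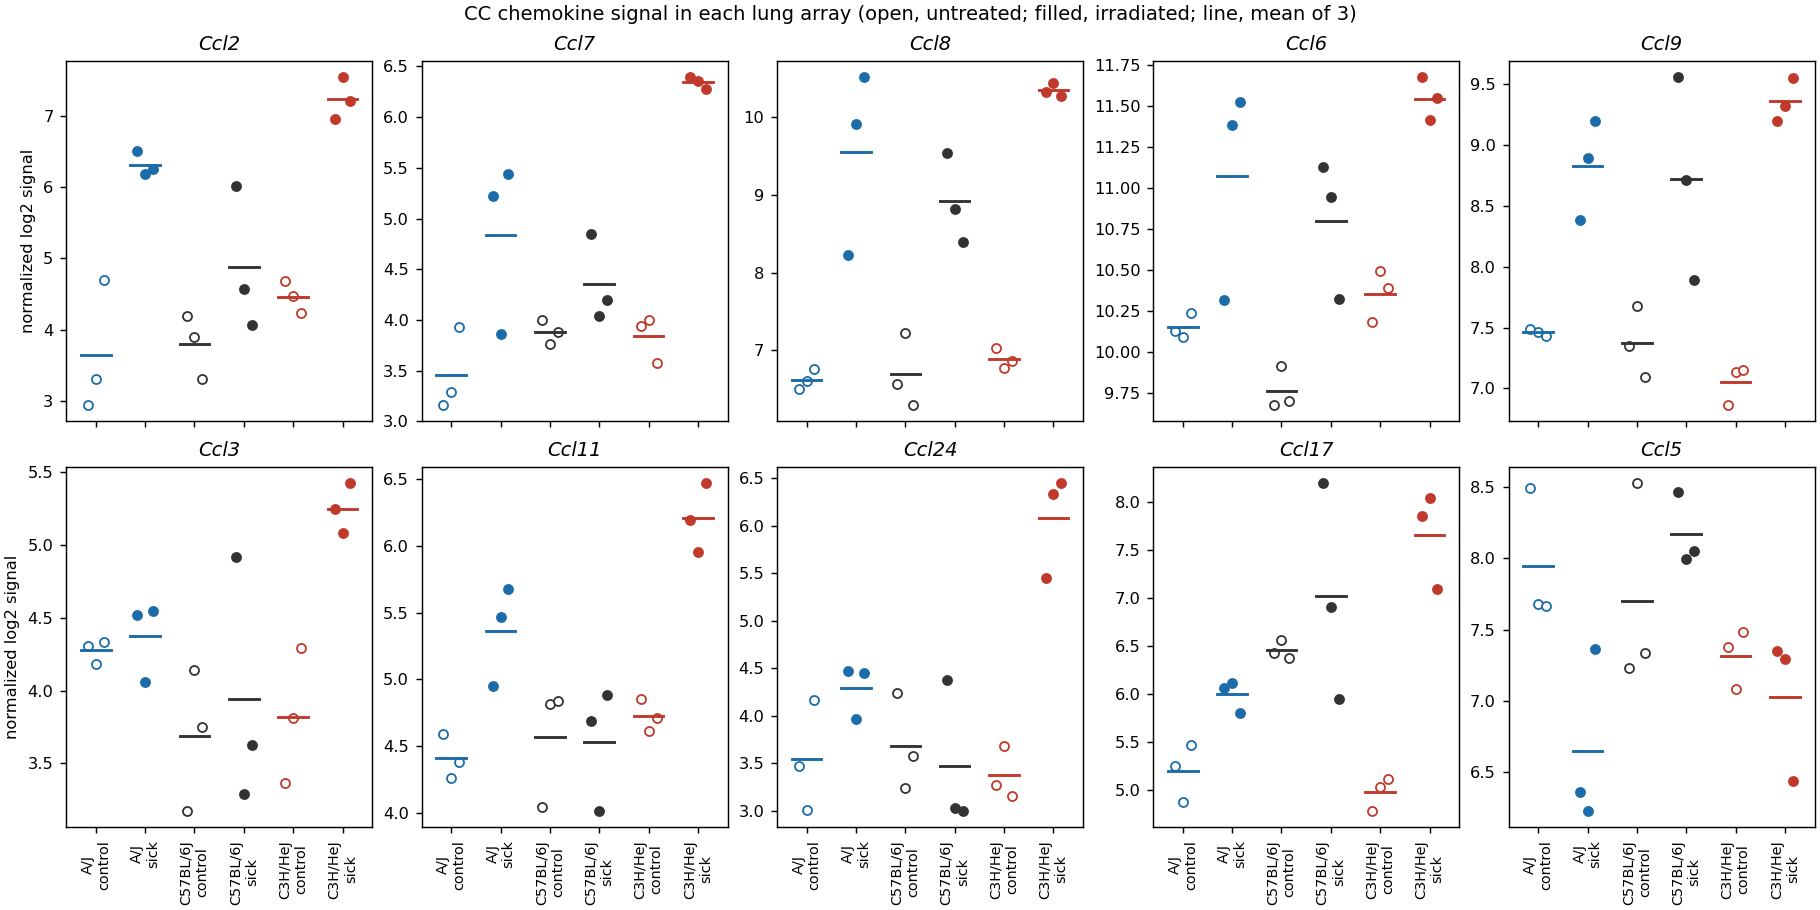
Normalized log2 value of each CC chemokine (y axis, own range in each panel) in every array by strain (x axis), with open points for untreated and filled points for irradiated mice and a line at each mean of 3. Ccl8 in irradiated C3H/HeJ lies between 10.28 and 10.45 with its controls at 7.03 or less, and Ccl5 in irradiated A/J lies below its controls.

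Ccl2 and Ccl7 are ligands of Ccr2, the receptor by which monocytes leave the marrow and enter tissue. Ccl2 in A/J read 2.95, 3.31 and 4.69 in control arrays 1 to 3 and 6.51, 6.18 and 6.25 in irradiated arrays 1 to 3. Its C57BL/6J controls read 4.20, 3.90 and 3.32 and the irradiated arrays 6.02, 4.58 and 4.07. C3H/HeJ controls stood at 4.68, 4.48 and 4.24 and irradiated lungs at 6.95, 7.53 and 7.21. All irradiated arrays lay above all controls in A/J and C3H/HeJ, whereas in C57BL/6J irradiated array 1 was high and array 3 fell within the controls. Ccl2 was above the overall median in 7 arrays, all irradiated, and its A/J controls lay near the low end of the signal. Ccl2 rose by 2.66 ± 0.44 (standard error of the fit) on the log2 scale in A/J, a 6.32-fold increase (adjusted p = 0.000547, limma). In C3H/HeJ the rise was 2.76 ± 0.44 or 6.79-fold (adjusted p = 0.000411). In a fit with no filter the adjusted p of Ccl2 was 0.00117 in A/J and 0.000916 in C3H/HeJ. The C57BL/6J effect of 1.08 ± 0.44 was not called (adjusted p = 0.182). The size depended on the offset, at 3.84 in A/J and 3.17 in C3H/HeJ with 1 added before the log and 1.44 and 1.90 with 32 added, all called. Irradiated C3H/HeJ lungs held the highest level and irradiated A/J lungs the next, without overlap. Irradiated C57BL/6J overlapped untreated C3H/HeJ, and untreated C57BL/6J overlapped untreated A/J.

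Ccl7, which recruits monocytes and some eosinophils, was dimmer and lay above the overall median signal in only 5 arrays. In A/J it read 3.16, 3.28 and 3.93 in controls and 5.22, 3.86 and 5.44 after irradiation, so irradiated array 2 fell among the controls. In C57BL/6J it read 4.0, 3.76 and 3.88 in controls and 4.85, 4.03 and 4.19 after irradiation, a small separation without overlap. In C3H/HeJ it read 3.94, 4.0 and 3.58 in controls and 6.39, 6.36 and 6.28 after irradiation, and these 3 irradiated arrays stood above every other array. The A/J rise was 1.38 ± 0.32 on the log2 scale, 2.61-fold (adjusted p = 0.00579, limma), and the C3H/HeJ rise 2.50 ± 0.32, 5.66-fold (adjusted p = 6.69e-05). The C57BL/6J effect was 0.48 ± 0.32 (adjusted p = 0.450). The 5 arrays above the overall median were all irradiated A/J or C3H/HeJ lungs. In a fit with no filter the adjusted p of Ccl7 was 0.0110 in A/J and 0.000169 in C3H/HeJ. With a fit of the A/J arrays alone, the A/J call was lost (adjusted p = 0.0575). The size of the A/J effect depended on the offset, at 2.21 with 1 added before the log and 0.61 with 32 added, and was called with both.

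Ccl8, which in mice signals through Ccr8 and is made by tissue macrophages, had the largest effect of any member in each of the 3 strains. With 1 added before the log, Ccl2 was larger in A/J (3.84, against 3.01 for Ccl8) and Ccl24 in C3H/HeJ (3.87, against 3.53). Ccl2 was also the larger in A/J without control 3 (3.18, against 3.00), without irradiated array 3 (2.69, against 2.45) and without the 3 arrays high in squamous keratins (2.71, against 2.45). A/J controls read 6.50, 6.61 and 6.76 and irradiated arrays 8.23, 9.92 and 10.51. C57BL/6J controls read 6.57, 7.22 and 6.30 and irradiated arrays 9.55, 8.83 and 8.39. C3H/HeJ controls read 7.03, 6.77 and 6.87 and irradiated arrays 10.32, 10.45 and 10.28. No irradiated array of any strain overlapped its controls. The irradiated C3H/HeJ arrays lay close together, and in A/J array 1 was well below the other irradiated arrays. Ccl8 rose 7.63-fold in A/J (2.93 ± 0.42 log2, adjusted p = 0.000157, limma), 4.68-fold in C57BL/6J (2.23 ± 0.42, adjusted p = 0.00671) and 11-fold in C3H/HeJ (3.46 ± 0.42, adjusted p = 4.27e-05). The order of irradiated means, C3H/HeJ, A/J and C57BL/6J, was of overlapping neighbours, as were the 3 untreated means. Its printed promoter holds TATAAA close to the start and none of the other 4 motifs.

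Ccl6, a rodent chemokine that macrophages make steadily and that acts through Ccr1, changed by the least of the 3 shared members. In A/J the controls read 10.13, 10.09 and 10.24 and the irradiated arrays 10.32, 11.38 and 11.53, with irradiated array 1 barely above the controls. C57BL/6J controls stood at 9.68, 9.92 and 9.70 and irradiated arrays at 11.13, 10.95 and 10.33. C3H/HeJ controls stood at 10.18, 10.50 and 10.39 and irradiated arrays at 11.68, 11.42 and 11.55. The groups did not overlap within any strain. Ccl6 rose 1.90-fold in A/J (0.92 ± 0.25 log2, adjusted p = 0.0140, limma), 2.05-fold in C57BL/6J (1.03 ± 0.25, adjusted p = 0.0262) and 2.28-fold in C3H/HeJ (1.19 ± 0.25, adjusted p = 0.00305). The A/J call was lost without irradiated array 2 (0.77, adjusted p = 0.0643), without irradiated array 3 (0.69, adjusted p = 0.0664) and with the A/J arrays fitted alone (adjusted p = 0.0713). Its second probe set gave effects of 1.16 in A/J (adjusted p = 0.0446), 1.16 in C57BL/6J (adjusted p = 0.140) and 1.39 in C3H/HeJ (adjusted p = 0.0252), in a fit over all probe sets in which 11.6%, 1.74% and 9.66% were called higher. On that probe set irradiated A/J array 1, at 8.67, fell among its controls of 8.87, 8.65 and 8.96.

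Ccl9, the neighbour of Ccl6 and also a Ccr1 ligand of macrophages, read 7.49, 7.46 and 7.43 in A/J controls and 8.38, 8.90 and 9.19 in irradiated A/J lungs. In C57BL/6J it read 7.35, 7.67 and 7.09 in controls and 9.55, 8.71 and 7.89 after irradiation. In C3H/HeJ it read 6.86, 7.13 and 7.15 in controls and 9.20, 9.32 and 9.55 after irradiation. Irradiated arrays exceeded controls throughout, with C57BL/6J array 3 the closest to its controls. The rise was 2.57-fold in A/J (1.36 ± 0.30 log2, adjusted p = 0.00408, limma), 2.55-fold in C57BL/6J (1.35 ± 0.30, adjusted p = 0.0185) and 4.94-fold in C3H/HeJ (2.31 ± 0.30, adjusted p = 7.46e-05). The second Ccl9 probe set was called higher in A/J (0.88, adjusted p = 0.0306), C57BL/6J (1.25, adjusted p = 0.0266) and C3H/HeJ (2.26, adjusted p = 6.87e-05). Irradiated C3H/HeJ lungs held the highest mean Ccl9 level, without overlap with irradiated A/J. Irradiated C57BL/6J lungs overlapped both, and their array 1 read as high as the highest irradiated C3H/HeJ array. The promoter stretches of Ccl6 and Ccl9 shared a run of 13 letters, and only that of Ccl9 held TATAAA, AP-1 and NF-kB letters.

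Ccl3, an inflammatory ligand of Ccr1 from activated macrophages, moved in C3H/HeJ. There the controls read 3.36, 3.81 and 4.29 and the irradiated arrays 5.25, 5.08 and 5.42, with no overlap. A/J arrays read 4.31, 4.18 and 4.33 in controls and 4.52, 4.06 and 4.55 after irradiation. C57BL/6J arrays read 3.17, 4.14 and 3.75 in controls and 4.92, 3.29 and 3.63 after irradiation. Groups overlapped in A/J and C57BL/6J, and C57BL/6J irradiated array 1 stood above the other 5 of its strain. The C3H/HeJ rise was 1.43 ± 0.34 on the log2 scale, 2.69-fold (adjusted p = 0.00685, limma), and the effects of 0.10 ± 0.34 in A/J (adjusted p = 0.859) and 0.25 ± 0.34 in C57BL/6J (adjusted p = 0.745) were not called. Ccl3 was above the overall median only in the 3 irradiated C3H/HeJ arrays, so it passed the filter through the group where it was high. In a fit with no filter its adjusted p there was 0.0128.

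Ccl11 and Ccl24 are the eotaxins of mouse lung, which draw eosinophils through Ccr3. Ccl11 in A/J read 4.59, 4.27 and 4.38 in controls and 4.95, 5.47 and 5.68 after irradiation. C57BL/6J controls read 4.05, 4.82 and 4.84 and irradiated arrays 4.69, 4.02 and 4.88. C3H/HeJ controls read 4.85, 4.61 and 4.71 and irradiated arrays 6.19, 5.95 and 6.47. A/J and C3H/HeJ groups were separate and the C57BL/6J groups overlapped fully. The Ccl11 rise was 0.95 ± 0.25 on the log2 scale or 1.94-fold in A/J (adjusted p = 0.0109, limma) and 1.48 ± 0.25 or 2.79-fold in C3H/HeJ (adjusted p = 0.000569), beside -0.04 ± 0.25 in C57BL/6J (adjusted p = 0.955). Levels ran from irradiated C3H/HeJ to irradiated A/J to untreated C3H/HeJ without overlap, and the remaining groups overlapped. Ccl11 lay above the overall median only in irradiated A/J or C3H/HeJ arrays. In a fit with no filter its adjusted p was 0.0203 in A/J and 0.00128 in C3H/HeJ.

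Ccl24 read low on the arrays outside irradiated C3H/HeJ lungs. C3H/HeJ controls read 3.27, 3.69 and 3.16 and irradiated arrays 5.45, 6.33 and 6.44, far apart. In A/J it read 3.48, 3.00 and 4.16 in controls and 4.47, 3.96 and 4.45 after irradiation. In C57BL/6J it read 4.24, 3.24 and 3.57 in controls and 4.38, 3.02 and 3.00 after irradiation. Both of these strains had overlapping groups. Ccl24 rose by 2.70 ± 0.38 on the log2 scale in C3H/HeJ, 6.51-fold (adjusted p = 0.000147, limma), beside 0.75 ± 0.38 in A/J (adjusted p = 0.176) and -0.22 ± 0.38 in C57BL/6J (adjusted p = 0.816). Like Ccl3 it passed the filter only through the irradiated C3H/HeJ arrays. With no filter the adjusted p was 0.000355, and with 1 or 32 added before the log the C3H/HeJ effect was 3.87 or 1.4. Among eosinophil markers, 5 of 10 (Epx, Prg2, Ccr3, Il5ra and Alox15) were below the filter and 4 had no probe set of their own. The single measured marker, Siglecf, which alveolar macrophages also carry, fell by 1.32 in A/J (adjusted p = 0.00309) and by 1.27 in C3H/HeJ (adjusted p = 0.00421), with -0.02 in C57BL/6J.

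Ccl17, a dendritic cell product that attracts Ccr4-bearing T cells, rose in C3H/HeJ from control values of 4.78, 5.02 and 5.11 to 7.85, 8.05 and 7.09. A/J controls read 5.25, 4.87 and 5.46 and irradiated arrays 6.07, 6.11 and 5.80. C57BL/6J controls read 6.43, 6.56 and 6.37 and irradiated arrays 8.20, 6.90 and 5.95. The C3H/HeJ and A/J groups were separate, and in C57BL/6J the irradiated arrays spread on both sides of the tight controls. The C3H/HeJ rise was 2.69 ± 0.39 log2, 6.46-fold (adjusted p = 0.000159, limma), and the effects of 0.80 ± 0.39 in A/J (adjusted p = 0.148) and 0.56 ± 0.39 in C57BL/6J (adjusted p = 0.457) were not called. The A/J effect was called without scaling between arrays (1.20, adjusted p = 0.00715), with median centring (0.97, adjusted p = 0.0463) and with A/J arrays fitted alone (adjusted p = 0.0216). Dendritic cell markers were called higher in 5 of 8 measured in C3H/HeJ, where 12.9% of all genes were called higher. With irradiated C3H/HeJ array 3 left out, the markers called higher numbered 4. Their mean per array there was 5.83 to 5.94 in controls and 6.40 to 6.65 after irradiation. In C57BL/6J lungs this mean also separated, at 5.6303 to 5.946 in controls and 6.0011 to 6.2294 after irradiation. Controls 1 and 3, high in squamous keratins, read 5.6303 and 5.6897 there, and control 2 read 5.946. In A/J the mean overlapped, at 5.9492 to 6.0977 and 6.0164 to 6.4892. Without the 3 arrays high in squamous keratins, 4 of the 8 markers were called higher in A/J. The part of dendritic cells in the Ccl17 result was not tested.

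Ccl5, made chiefly by T and natural killer cells and read by Ccr1, was the only member called lower in any strain. A/J controls read 8.50, 7.68 and 7.66 and irradiated arrays 6.36, 6.23 and 7.37, all below the controls. C57BL/6J controls read 7.23, 8.53 and 7.34 and irradiated arrays 8.46, 8.00 and 8.05. C3H/HeJ controls read 7.38, 7.08 and 7.48 and irradiated arrays 7.35, 7.29 and 6.44. Groups overlapped in both of these strains. In A/J Ccl5 fell by 1.29 ± 0.36 on the log2 scale, 2.45-fold lower (adjusted p = 0.0172, limma), beside 0.47 in C57BL/6J (adjusted p = 0.520) and -0.29 in C3H/HeJ (adjusted p = 0.614). The A/J call was lost without scaling (-0.82, adjusted p = 0.0717), without control 1 (-1.02, adjusted p = 0.0859), without irradiated array 1 (-1.14, adjusted p = 0.0627) and without irradiated array 2 (-1.08, adjusted p = 0.0741). It held without the 3 arrays high in squamous keratins (-1.65, adjusted p = 0.00224). Of 13 measured T and natural killer cell markers 6 were called lower in A/J and none higher, where 8.91% of all genes were called lower. Among the 6 were Gzma (-2.13), Prf1 (-1.46) and Ncr1 (-1.15). These calls were made with scaling between arrays, without which far fewer genes in all were called lower in A/J. The mean of the 13 per array was 5.97 to 6.03 in A/J controls and 5.14 to 5.54 after irradiation. It overlapped in C57BL/6J, at 5.50 to 6.04 and 5.74 to 5.85, and in C3H/HeJ, at 5.31 to 5.51 and 5.31 to 5.54. The part of these cells in the Ccl5 result was not tested.

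**Figure D2:**
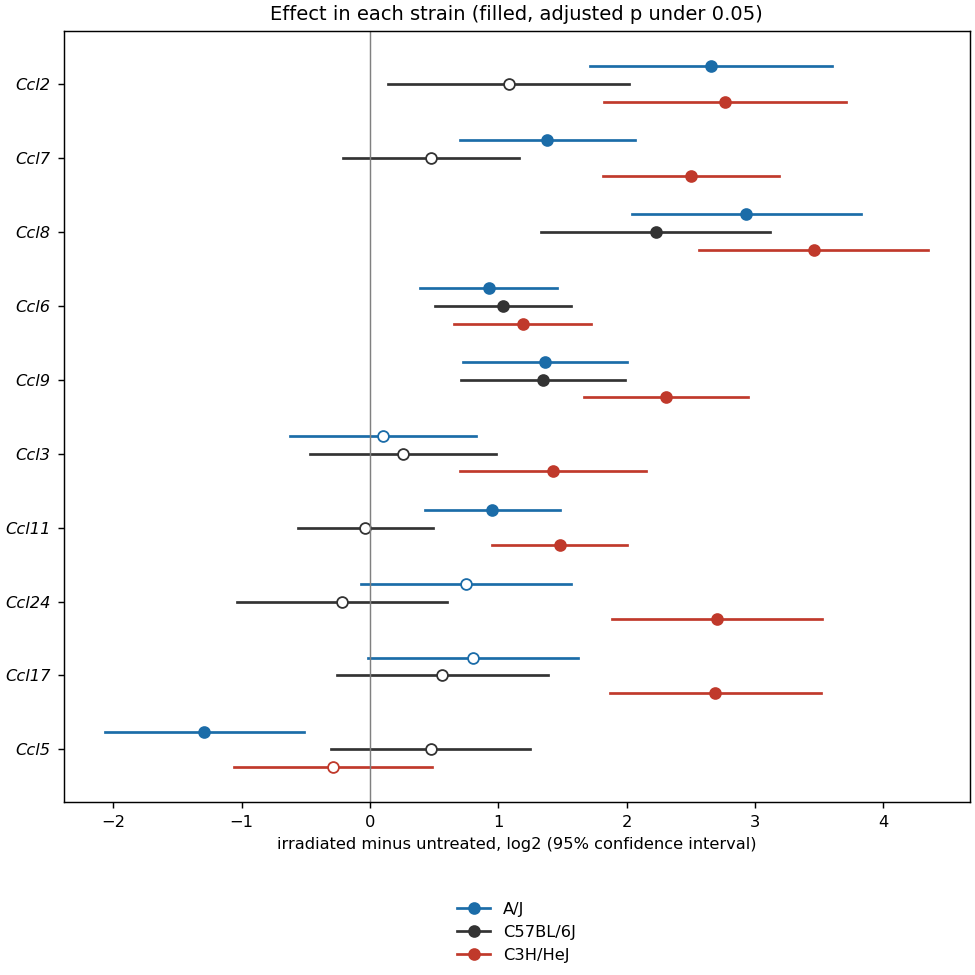
Log2 effect of irradiation (x axis) for each CC chemokine (y axis) in each strain, with the 95% confidence interval of the limma fit and filled symbols for an adjusted p under 0.05. Ccl8 has the largest effect in each strain (2.93, 2.23 and 3.46), an order that some alternatives change in A/J and C3H/HeJ, and Ccl5 in A/J is the only filled symbol below 0.

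The C57BL/6J results rested on few arrays. Irradiated array 1 was the highest of its group for 9 of the 10 members, with array 3 highest for Ccl11. Without array 1, Ccl6 (0.87, adjusted p = 0.132) and Ccl9 (0.93, adjusted p = 0.0761) lost their call, while Ccl8 kept it. Ccl6 also lost its call without irradiated array 2 (adjusted p = 0.0816), control 1 (adjusted p = 0.103) or control 3 (adjusted p = 0.0774), and Ccl9 without control 1 (adjusted p = 0.0711) or control 3 (adjusted p = 0.0712). Without the 3 arrays high in squamous keratins, which leaves 1 C57BL/6J control whose spread is taken from the other groups, no member was called. The effects were then 1.70 ± 0.49 for Ccl8 (adjusted p = 0.234), 0.88 for Ccl6 (adjusted p = 0.430) and 1.05 for Ccl9 (adjusted p = 0.459), and 32 genes were called in all. The A/J effects without those arrays were 2.71 for Ccl2, 2.45 for Ccl8, 1.18 for Ccl9, 1.09 for Ccl7 and 0.80 for Ccl11, all still called, and 0.69 for Ccl6 (adjusted p = 0.0885). Without irradiated C3H/HeJ array 3 the same 9 members were called in C3H/HeJ, with effects such as 2.76 for Ccl2, 3.49 for Ccl8, 2.96 for Ccl17 and 2.49 for Ccl24.

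The response of 3 members was larger in C3H/HeJ than in C57BL/6J by the test of the difference between effects, in which 1.02% of all genes were called higher. The difference was 2.92 ± 0.54 on the log2 scale for Ccl24 (95% confidence interval 1.76 to 4.08, adjusted p = 0.0142, limma). For Ccl7 it was 2.02 ± 0.46 (1.06 to 2.99, adjusted p = 0.0397) and for Ccl11 1.52 ± 0.35 (0.77 to 2.26, adjusted p = 0.0436). Both genes lay above the overall median in 5 arrays, all irradiated A/J or C3H/HeJ lungs, so they passed the filter only through groups where they were high. With no filter neither difference was called (adjusted p = 0.0725 for Ccl7 and 0.0793 for Ccl11), nor with 1 added before the log (adjusted p = 0.101 and 0.0751), while that of Ccl24 was called with no filter (adjusted p = 0.0301). That of Ccl24 held with each single array left out, at adjusted p from 0.00223 to 0.0466, but not with 1 added before the log (4.55, adjusted p = 0.0535) or without the 3 arrays high in squamous keratins (2.49, adjusted p = 0.170). The Ccl7 difference lost its call with 11 of the 12 single arrays left out and the Ccl11 difference with 9 of 12. Both lost it without the 3 arrays (1.91, adjusted p = 0.185, and 1.77, adjusted p = 0.0840) and without irradiated C3H/HeJ array 3 (2.04, adjusted p = 0.0633, and 1.37, adjusted p = 0.0925). Ccl17 missed the threshold at 2.13 ± 0.55 (0.97 to 3.29, adjusted p = 0.0610) and passed it without irradiated C57BL/6J array 1 (2.72, adjusted p = 0.00214). For Ccl6 the difference was 0.15, with an interval of -0.60 to 0.91. Ccl2 differed by 1.69 (adjusted p = 0.190), Ccl8 by 1.23 (adjusted p = 0.319), Ccl3 by 1.17 (adjusted p = 0.236) and Ccl9 by 0.96 (adjusted p = 0.277).

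No member passed the test of the difference between C3H/HeJ and A/J, in which 1.06% of all genes were called, although the value was positive for each of the 10. The differences were 1.96 ± 0.54 for Ccl24 (0.80 to 3.11, adjusted p = 0.0838, limma) and 1.89 ± 0.55 for Ccl17 (0.73 to 3.05, adjusted p = 0.0965). For Ccl2 it was 0.11, with an interval of -1.23 to 1.44. Between C57BL/6J and A/J no member passed either, against 5.38% of all genes called. Ccl5 came nearest, at 1.77 ± 0.52 higher in C57BL/6J (0.67 to 2.86, adjusted p = 0.0595), and passed without irradiated A/J array 3 (2.12, adjusted p = 0.0223) or C57BL/6J control 2 (2.18, adjusted p = 0.0137). Ccl2 differed by -1.58 ± 0.63 (-2.91 to -0.25, adjusted p = 0.156). The intervals for Ccl6 (-0.64 to 0.87) and Ccl9 (-0.92 to 0.89) spanned differences of either sign. Any pair of these comparisons has 1 strain in common, so their values are not independent.

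**Figure D3:**
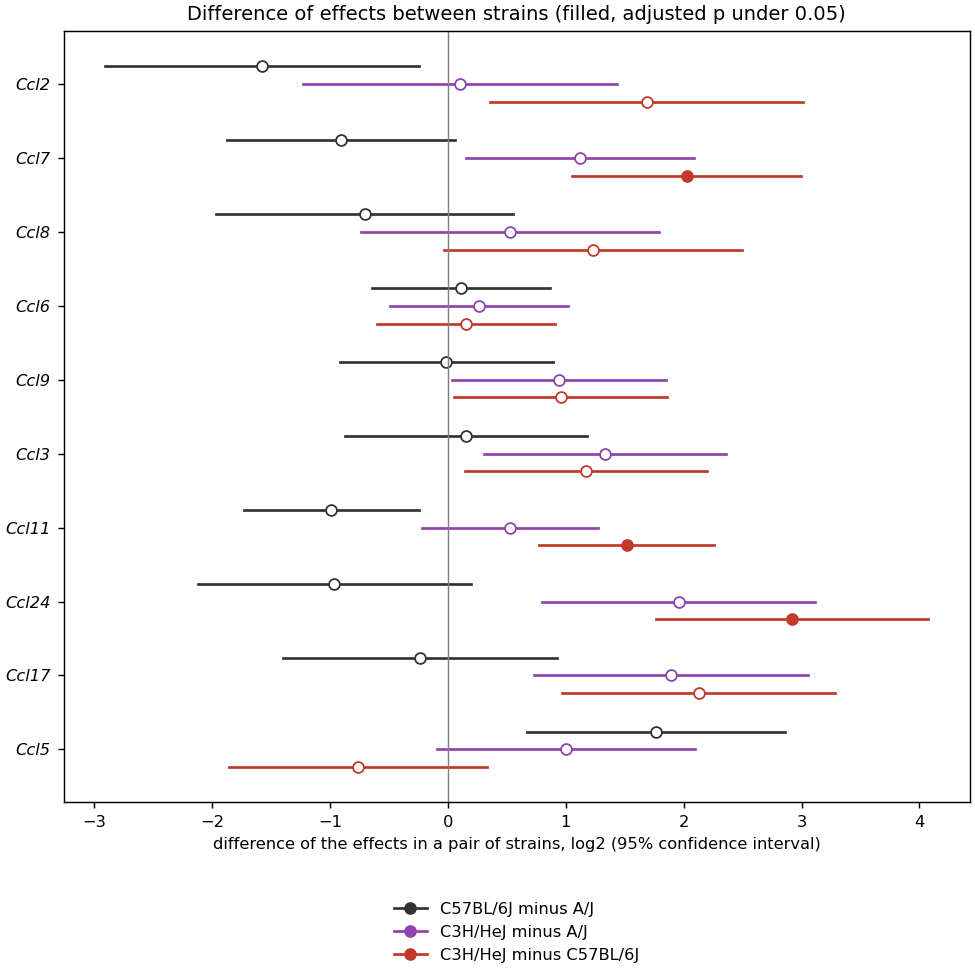
Difference between strains in the log2 effect of irradiation (x axis) for each CC chemokine (y axis), with 95% confidence intervals and filled symbols for an adjusted p under 0.05. The filled symbols are Ccl7 (2.02), Ccl11 (1.52) and Ccl24 (2.92) for C3H/HeJ minus C57BL/6J.

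In untreated lungs, Ccl17 was the member that differed between strains. Its C57BL/6J controls, at 6.37 to 6.56, lay above all A/J and C3H/HeJ controls. The level in C57BL/6J was 1.26 ± 0.39 higher on the log2 scale than in A/J (adjusted p = 0.0491, limma), a comparison in which 5.92% of all genes were called higher. It was 1.48 ± 0.39 higher than in C3H/HeJ, written there as -1.48 for C3H/HeJ minus C57BL/6J (adjusted p = 0.0213), where 6% of all genes were called lower. The difference from A/J lost its call with each single array left out, and that from C3H/HeJ without any 1 of the 3 C57BL/6J controls or without C3H/HeJ control 1. With the 3 arrays that were high in squamous keratins left out, the values were 1.37 (adjusted p = 0.310) and -1.59 (adjusted p = 0.195). No other member was called between untreated strains, and none between C3H/HeJ and A/J, where 4.49% of all genes were called.

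Among receptors and scavengers of these ligands, 8 of 15 listed genes were measured. Of these, 3 were called higher and 2 lower in A/J, 2 and 1 in C57BL/6J, and 3 and 1 in C3H/HeJ, with median effects of -0.33, 0.39 and 0.65. By comparison, 15.1% of all genes were called higher and 8.91% lower in A/J, 3.01% and 2.36% in C57BL/6J, and 12.9% and 10.6% in C3H/HeJ, with medians of 0.09, -0.01 and 0.01, and the counts of each further list have the same background. Ccr1, the receptor of Ccl3, Ccl5, Ccl6 and Ccl9, rose in each strain. Its A/J controls read 5.92, 5.99 and 6.18 and irradiated arrays 6.89, 7.09 and 7.0. C57BL/6J controls of Ccr1 read 5.93, 5.78 and 5.55 and irradiated arrays 7.53, 6.55 and 6.37. C3H/HeJ controls of Ccr1 read 5.40, 5.62 and 5.80 and irradiated arrays 7.53, 8.13 and 8.13. No groups overlapped, and the effects were 0.97 ± 0.24 in A/J (adjusted p = 0.00846, limma), 1.07 ± 0.24 in C57BL/6J (adjusted p = 0.0193) and 2.32 ± 0.24 in C3H/HeJ (adjusted p = 1.22e-05). The C57BL/6J call of Ccr1 was lost without irradiated array 1 (0.71, adjusted p = 0.0659), without control 3 (adjusted p = 0.0728) and without the 3 arrays high in squamous keratins (adjusted p = 0.363).

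Ccr2, the receptor of Ccl2, Ccl7 and Ccl12, rose in C3H/HeJ from 7.06, 7.96 and 7.25 to 8.57, 9.52 and 9.40. In A/J it read 8.51, 8.54 and 8.27 in controls and 7.56, 8.20 and 8.23 after irradiation, each irradiated array below the controls. In C57BL/6J it read 8.07, 7.76 and 7.69 in controls and 8.41, 7.93 and 7.85 after irradiation, which overlapped. The effects were 1.74 ± 0.27 in C3H/HeJ (adjusted p = 0.000305, limma), -0.44 in A/J (adjusted p = 0.254) and 0.23 in C57BL/6J (adjusted p = 0.707). The Ccr2 response was 2.19 ± 0.38 larger in C3H/HeJ than in A/J (adjusted p = 0.0152), a call lost without irradiated C3H/HeJ array 2 (adjusted p = 0.0506). Ccr7, which guides dendritic and T cells to lymph nodes and reads other CC ligands, had effects of -0.79 in A/J (adjusted p = 0.0458) and 0.81 in C3H/HeJ (adjusted p = 0.0414). Neither held under all settings: the A/J call of Ccr7 was lost with 5 of 6 single arrays left out. Its C3H/HeJ call was kept with only 1 of 6 single arrays left out (adjusted p up to 0.125). Ccr6 was called higher in C57BL/6J (0.78, adjusted p = 0.0395), a call lost with 4 of 6 single arrays left out (adjusted p up to 0.181), with no filter (adjusted p = 0.0701), without scaling (0.82, adjusted p = 0.466) and without the 3 arrays high in squamous keratins (0.33, adjusted p = 0.762). Ccr3, Ccr4 and Ccr8, the receptors of the eotaxins, of Ccl17 and of Ccl8, were below the filter.

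Ccrl2, a surface protein that binds chemoattractants without signalling, fell. A/J values were 7.69, 7.87 and 7.74 in controls and 6.83, 6.66 and 6.73 after irradiation. C57BL/6J values were 7.69, 7.60 and 7.53 in controls and 7.13, 7.18 and 7.13 after irradiation. C3H/HeJ values were 8.30, 7.67 and 8.03 in controls and 6.82, 6.72 and 6.92 after irradiation. The groups were separate in each strain, with effects of -1.03 ± 0.13 in A/J (adjusted p = 4.88e-05, limma), -0.46 ± 0.13 in C57BL/6J (adjusted p = 0.0489) and -1.18 ± 0.13 in C3H/HeJ (adjusted p = 1.71e-05). Without scaling the effects were -0.52 in A/J (adjusted p = 0.230) and -0.52 in C3H/HeJ (adjusted p = 0.212), and the C57BL/6J call was lost with every single array left out. Ackr1, the chemokine-transporting receptor of venular endothelium, rose in A/J from 4.60, 4.55 and 4.76 to 5.75, 7.04 and 7.26 (2.05 ± 0.38, adjusted p = 0.00134). Its effects of 0.55 in C57BL/6J (adjusted p = 0.474) and 0.99 in C3H/HeJ (adjusted p = 0.0759) were not called. Ackr4, a scavenger of other CC ligands, was called higher in A/J (1.12, adjusted p = 0.00151), and Ackr2, the scavenger of inflammatory CC chemokines, was called in no strain.

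**Figure D4:**
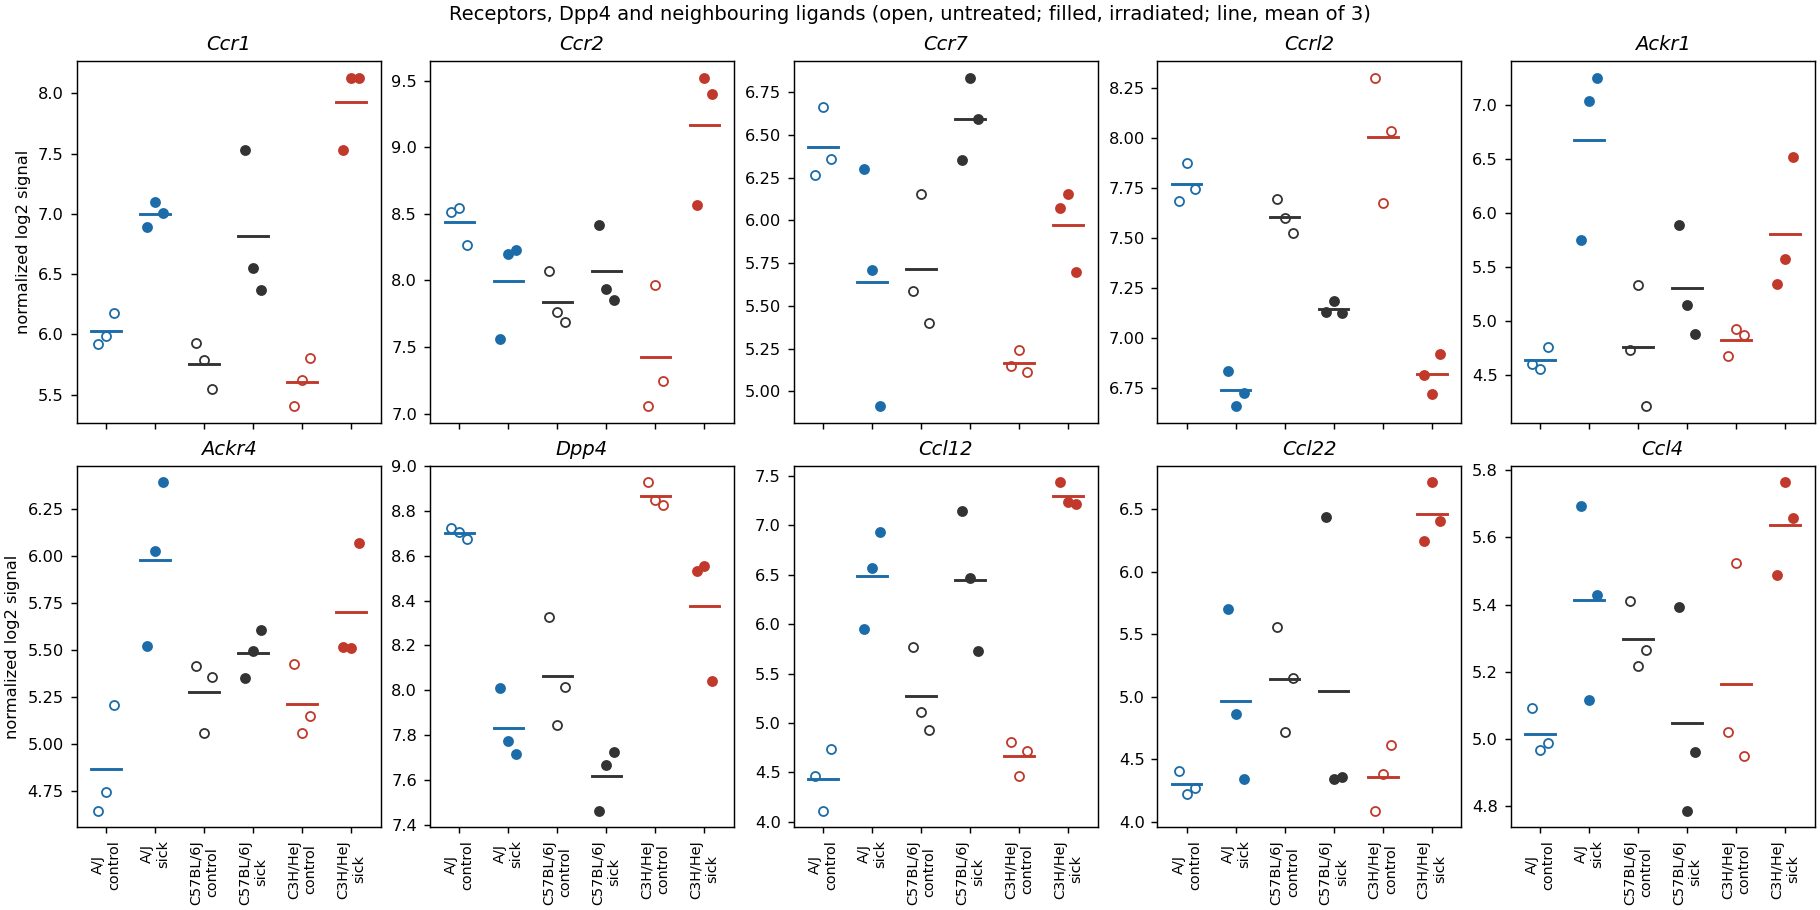
Normalized log2 value per array (y axis, own range in each panel) of 7 receptors or modifiers and 3 further ligands by strain (x axis), with open points for untreated and filled points for irradiated mice and a line at each mean of 3. Ccr1 rose in each strain, Ccr2 in C3H/HeJ (1.74), and Ackr1 in A/J (2.05).

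Of 11 other CC ligands 6 were measured, with 1 called higher in A/J, 1 in C57BL/6J lungs and 2 in C3H/HeJ and 1 lower in C3H/HeJ, and median effects of 0.33, 0.14 and 0.43. Ccl12, a Ccr2 ligand whose gene lies between those of Ccl11 and Ccl8, was called higher in each strain. In A/J it read 4.47, 4.11 and 4.73 in controls and 5.95, 6.57 and 6.94 after irradiation. In C57BL/6J it read 5.77, 5.11 and 4.93 in controls and 7.14, 6.46 and 5.73 after irradiation. In C3H/HeJ it read 4.81, 4.46 and 4.71 in controls and 7.44, 7.24 and 7.22 after irradiation. Groups overlapped only in C57BL/6J, and Ccl12 rose by 2.05 ± 0.31 in A/J (adjusted p = 0.000270, limma), 1.18 ± 0.31 in C57BL/6J (adjusted p = 0.0401) and 2.64 ± 0.31 in C3H/HeJ (adjusted p = 3.61e-05). The C57BL/6J call of Ccl12 was lost with 4 of 6 single arrays left out (adjusted p up to 0.196). Ccl22, the other Ccr4 ligand and neighbour of Ccl17, rose in C3H/HeJ from 4.09, 4.39 and 4.62 to 6.25, 6.72 and 6.41 (2.09 ± 0.44, adjusted p = 0.00308). Its effects were 0.67 in A/J (adjusted p = 0.298) and -0.10 in C57BL/6J (adjusted p = 0.935), as for Ccl17 in those strains not called. Ccl27a was called lower in C3H/HeJ (-0.52, adjusted p = 0.0225), and Ccl4, the neighbour of Ccl3, was called in no strain.

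Genes that process chemokines or hold them on glycosaminoglycans were measured for 12 of 14, with 5 called higher and 3 lower in A/J, 2 and none in C57BL/6J, and 5 and 1 in C3H/HeJ, and with medians of 0.26, 0.04 and 0.30. Mmp12, the macrophage elastase, which cuts several CC chemokines, rose by 2.43 in A/J and 3.17 in C3H/HeJ. Mmp2 rose by 1.79, 1.02 and 0.93 and Mmp14 by 0.83, 0.97 and 1.06 in lungs of A/J, of C57BL/6J and of C3H/HeJ. The heparan sulphate proteoglycans went apart in A/J, where Sdc4 fell by 1.75 and Hspg2 rose by 1.64. Dpp4, the protease that trims the amino terminus of Ccl11, Ccl22 and Ccl5, fell by 0.87 in A/J (adjusted p = 0.000591, limma) and by 0.49 in C3H/HeJ (adjusted p = 0.0237), with -0.44 in C57BL/6J (adjusted p = 0.0911). The C3H/HeJ value of Dpp4 turned to 0.22 without scaling and lost its call with median centring (-0.15, adjusted p = 0.530) and without irradiated array 3 (-0.32, adjusted p = 0.119), and the A/J value was -0.28 without scaling (adjusted p = 0.508).

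Inducers of these chemokines were read as 3 lists, beside which 15.1% of all genes were called higher and 8.91% lower in A/J, 3.01% and 2.36% in C57BL/6J, and 12.9% and 10.6% in C3H/HeJ. Of 19 measured genes of NF-kB and inflammatory signalling, 5 were called higher and 1 lower in A/J, none in C57BL/6J and 10 higher in C3H/HeJ, with medians of 0.20, 0.20 and 0.51 beside 0.09, -0.01 and 0.01 over all genes. The A/J count was 3 higher and 1 lower without the 3 arrays high in squamous keratins. Il6 rose by 2.43 ± 0.41 in A/J (adjusted p = 0.000629, limma) and 4.38 ± 0.41 in C3H/HeJ (adjusted p = 5.68e-06), and its response was 3.80 ± 0.58 larger in C3H/HeJ than in C57BL/6J (adjusted p = 0.00618). Il1b rose by 1.77 in C3H/HeJ (adjusted p = 0.000958), more than in C57BL/6J by 2.22 (adjusted p = 0.0236). The Il1b difference lost its call with 6 of 12 single arrays left out, irradiated C3H/HeJ array 3 among them (2.10, adjusted p = 0.0523), and without the 3 arrays high in squamous keratins (2.08, adjusted p = 0.152). Cebpd rose by 1.30 in A/J and 1.35 in C3H/HeJ, and Fos by 1.48 in C3H/HeJ while Jun fell by 1.25 in A/J. Of 9 measured genes of type 2 immunity, which induces Ccl11, Ccl17 and Ccl24, 2 were called higher in A/J, 1 higher and 1 lower in C57BL/6J, and 4 higher and 1 lower in C3H/HeJ, with medians of 0.21, 0.13 and 0.34. Retnla, a product of alternatively activated macrophages, rose by 2.80, 1.68 and 2.85 in lungs of A/J, of C57BL/6J and of C3H/HeJ, Chil3 by 1.35 in A/J and Arg1 by 2.77 in C3H/HeJ, while Gata3 fell by 1.24 in C57BL/6J and 0.89 in C3H/HeJ. The C57BL/6J effect of Retnla was 1.34 without the 3 arrays and not called (adjusted p = 0.166). Of 13 measured interferon pathway genes, 1 was called higher and 1 lower in A/J, 3 higher in C57BL/6J, and 4 higher and 1 lower in C3H/HeJ, with medians of 0.12, 0.18 and 0.18. The interferon count in A/J, 1 of 13, was below the share of all genes called higher there. Irf8 rose by 0.43, 0.45 and 0.73 and Irf7 by 0.84 in C3H/HeJ and 1.18 in C57BL/6J.

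Downstream of the receptors, 15 of 18 listed G proteins, arrestins and kinases were measured, and 3 were called higher and 2 lower in A/J, 3 higher in C57BL/6J, and 7 higher and 1 lower in C3H/HeJ, with medians of 0.15, 0.36 and 0.43. For these genes and for the adhesion genes, the comparable shares were those where 15.1% of all genes were called higher and 8.91% lower in A/J, 3.01% and 2.36% in C57BL/6J, and 12.9% and 10.6% in C3H/HeJ. Pik3r5, a regulatory subunit of the leukocyte lipid kinase that chemokine receptors switch on, rose by 1.15, 0.79 and 1.37 in lungs of A/J, of C57BL/6J and of C3H/HeJ. Dock2, the Rac activator that lymphocytes need to follow chemokines, rose by 0.66 in C57BL/6J and 0.94 in C3H/HeJ. Arrb2 rose by 0.72 in A/J and 0.66 in C3H/HeJ. Of 15 measured adhesion genes, 4 were called higher and 2 lower in A/J, 1 higher in C57BL/6J, and 6 higher and 3 lower in C3H/HeJ, with medians of 0.09, 0.03 and 0.34. The endothelial selectins Sele (1.59 in A/J, 1.35 in C3H/HeJ) and Selp (1.46 in A/J, 1.51 in C3H/HeJ) rose, and Selplg, their leukocyte ligand, rose by 0.47, 0.40 and 0.80 in lungs of A/J, of C57BL/6J and of C3H/HeJ, while Icam2 fell by 0.82 in A/J and 0.99 in C3H/HeJ. In C57BL/6J, each of these pathway counts was 0 without the 3 arrays high in squamous keratins.

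Macrophage markers were read beside the macrophage-made members. Of 14 measured, 8 were called higher in A/J, 4 in C57BL/6J lungs and 12 in C3H/HeJ, and none lower, with medians of 0.69, 0.61 and 1.32. Trem2 rose by 2.21, 1.86 and 2.70 and C1qb by 1.36, 1.19 and 2.10 in lungs of A/J, of C57BL/6J and of C3H/HeJ. The mean of the 14 markers per array was 7.34 to 7.61 in all controls. After irradiation it was 7.63, 8.57 and 8.72 in A/J, 8.58, 7.90 and 7.55 in C57BL/6J and 8.66, 8.64 and 8.90 in C3H/HeJ. The arrays with the lowest Ccl6, Ccl8 and Ccl9 of their irradiated group, A/J array 1 and C57BL/6J array 3, were also the lowest in this mean. In irradiated C3H/HeJ lungs array 2 had the lowest mean and held the lowest Ccl6. There Ccl8 was lowest in array 3, which had the highest mean, and Ccl9 was lowest in array 1. A/J array 1 also had the lowest 5' to 3' ratios of all arrays, 0.413 for actin and 0.294 for Gapdh, and the part of RNA quality was not tested. With the 3 arrays that were high in squamous keratins left out, the counts were 5, none and 12, and without irradiated C3H/HeJ array 3 the C3H/HeJ count was 11. Mast cell markers, another source of CC chemokines, were called higher for 7 of 9 in A/J, 1 in C57BL/6J lungs and 7 in C3H/HeJ, with a mean of 5.20 to 5.88 in A/J controls and 7.46 to 8.08 after irradiation. Without the 3 arrays high in squamous keratins, 7 mast cell markers were called higher and 1 lower in A/J. That fit leaves 1 C57BL/6J control, and the median mast cell effect for this strain was 0.54. With all arrays the mast cell mean overlapped in C57BL/6J, at 4.60 to 5.08 in controls and 5.06 to 5.68 after irradiation. Without irradiated C3H/HeJ array 3, 6 mast cell markers were called higher and 1 lower in C3H/HeJ. Neutrophil markers were called higher for 2 of 8 and lower for 2 in A/J, and higher for 3 in C3H/HeJ. Their mean per array was 6.79 to 6.95 in A/J controls and 7.39, 6.88 and 6.13 in irradiated A/J arrays 1 to 3. Array 3 is among those high in squamous keratins. Without irradiated C3H/HeJ array 3 the C3H/HeJ count of neutrophil markers called higher was 2. The part of these cells in the members' results was not tested.

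**Figure D5:**
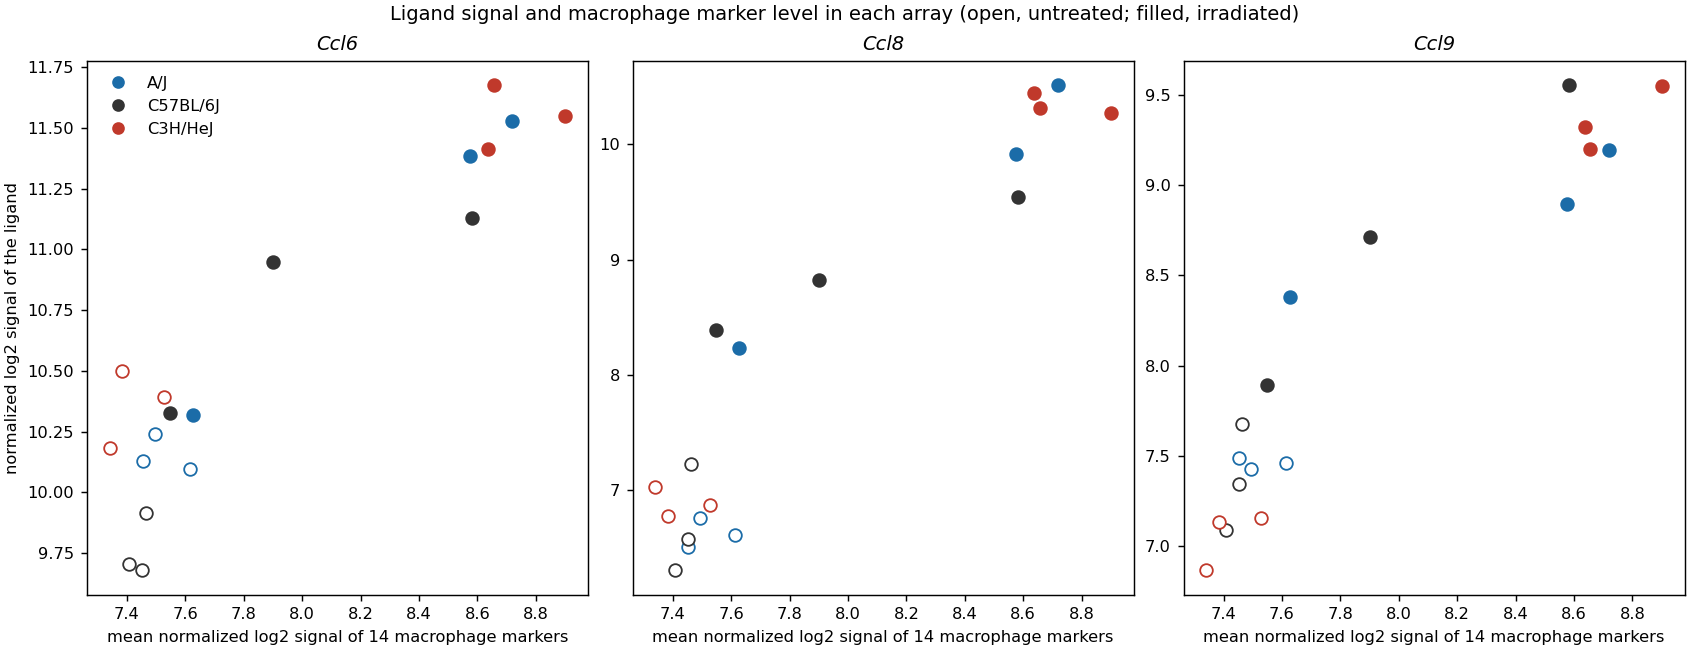
Normalized log2 value of Ccl6, Ccl8 and Ccl9 (y axis, 1 panel each) against the mean normalized log2 value of 14 macrophage markers (x axis) in the 18 arrays, with open points for untreated and filled points for irradiated mice of each strain. Controls gather between 7.34 and 7.61 on the x axis, and irradiated arrays spread from 7.55 to 8.90.

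The genes most like each member across the 18 arrays, by Pearson's r of normalized values, are given as a description, since the arrays share strain and treatment. Ccl6 was most like Cd68 (0.98), Gusb (0.97) and Pirb (0.97), Ccl9 like P2ry6 (0.98), C1qc (0.97) and Fcgr2b (0.97), and Ccl8 like Tlr13, Ctsb and Fscn1 (0.97 each). Ccl2 was most like Col5a2, Timp1 and Ch25h (0.96 each), and Ccl7 like Ch25h (0.93), Timp1 (0.92) and Ptger4 (0.91). Ccl3 was nearest to Tlr2 (0.87), Marchf1 (0.87) and Lif (0.86), Ccl11 to Hmox1 (0.90), Rab43 (0.89) and Hif1a (0.88), and Ccl24 to Adamts4 (0.91), S100a4 (0.91) and Prc1 (0.90). Ccl17 was nearest to Krt18 (0.91), H2-Eb1 (0.89) and Mmp3 (0.88). Ccl5 was nearest to Mideas (0.88), Rnase6 (0.85) and the T cell receptor segment Trbv1 (0.84). After the group means were removed, the r of Ccl6 with Cd68 was 0.91 and that of Ccl9 with P2ry6 was 0.92, while that of Ccl7 with Timp1 was 0.23. Among members themselves, r was 0.95 for Ccl8 with Ccl9, 0.94 for Ccl6 with Ccl8, 0.90 for Ccl2 with Ccl7 and 0.90 for Ccl7 with Ccl24.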

How the data were processed

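Total right-lung RNA of 18 samples was biotin-labelled and hybridised to single-colour Affymetrix arrays, per the labels' protocols. The deposited table holds 1 intensity per probe set and array, made by the authors with MAS5 per the submitters' processing notes. Its version, scaling target and background settings are not given in the sources used here. Probe sets were named through the platform annotation: 34958 named 1 gene, 932 several and 9211 were without an entry. After log2 of the intensity plus 7 and quantile normalization, a probe set was kept if above the overall median (4.98) in at least 3 arrays, which left 25726. The kept probe set with the highest mean stood for a gene, and 64 control probe sets were left out.

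A linear model with 6 group means (limma 3.58.1, R 4.3.3; 12 residual degrees of freedom) was fitted to 12405 genes, with 2-sided tests, Benjamini-Hochberg adjustment over all genes and a threshold of 0.05. Calls mean an adjusted p under 0.05, and errors are standard errors of the fit. The procedure was tested on simulated data. Groups and replicate numbers come from the sample titles. Correlations of deviations between same-numbered control and irradiated arrays ran from -0.0838 to 0.0953, so the numbers were not treated as pairs. Alternatives changed the scaling, offset, filter, probe set, arrays in the fit, replicate block and variance model, and left out each array. Leaving out the 3 arrays high in squamous keratins was chosen after seeing the data, as were the alternatives for genes outside the members. All 10 members are named. From each gene list up to 4 called genes of largest effect per comparison were eligible, plus the members' receptors, and 3 genes of highest correlation per member. Other receptors and Ccl4 were named after their values were seen. The members and lists were chosen with earlier results of these data known. Promoter stretches come from RefSeq.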

Additional observations from a re-analysis of the deposited data

Results flagged for a closer look

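The response to irradiation of 3 members differed between C3H/HeJ and C57BL/6J lungs by the test of the difference between effects (limma, 3 arrays in each of 4 groups). The difference on the log2 scale was 2.92 ± 0.54 for Ccl24 (adjusted p = 0.0142), with every irradiated C3H/HeJ array above its controls and overlapping groups in C57BL/6J. It was 2.02 ± 0.46 for Ccl7 (adjusted p = 0.0397) and 1.52 ± 0.35 for Ccl11 (adjusted p = 0.0436). Ccl7 and Ccl11 passed the filter on dim probe sets only through irradiated arrays, and with no filter neither was called (adjusted p = 0.0725 and 0.0793). None of the 3 was called without the 3 arrays high in squamous keratins.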

How the results depend on the processing

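Of 498 alternatives run for the 30 effects of irradiation on the members, 458 kept the direction and the side of the threshold, 22 lost a call, 4 gained one and 14 changed the sign. Of the 19 called effects, 13 kept their call under each alternative. A further 546 alternatives covered 30 called effects and differences of selected other genes, of which 450 kept both, 95 lost a call and 1 changed sign. These genes were Ccl12, Ccl22, Ccr1, Ccr2, Ccr6, Ccr7, Ccrl2, Ackr1, Ackr4, Dpp4, Il6, Il1b and Retnla. The remaining named genes were not part of this count. With each single array left out, the members called ranged from 5 to 7 in A/J, from 1 to 3 in C57BL/6J and were 9 each time in C3H/HeJ. The count ranged from 0 to 1 for C57BL/6J minus A/J, was 0 for C3H/HeJ minus A/J, and ranged from 1 to 7 for C3H/HeJ minus C57BL/6J (7 without irradiated C57BL/6J array 1). For untreated C57BL/6J against A/J it was 0 each time, and for untreated C3H/HeJ against C57BL/6J it ranged from 0 to 1.

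Without scaling between arrays, 1 member was called for C57BL/6J minus A/J, 2 for C3H/HeJ minus A/J, 6 for C3H/HeJ minus C57BL/6J and 0 for untreated C57BL/6J against A/J. The C3H/HeJ effects then turned to 0.34 for Ccl5 and 0.22 for Dpp4. Untreated C57BL/6J against A/J also gave 0 with median centring, with 32 added, with no filter and without the 3 arrays high in squamous keratins. With 32 added, 1 member was called for C57BL/6J minus A/J and 1 for C3H/HeJ minus A/J. For C3H/HeJ minus C57BL/6J the count was 0 with 1 added, 1 with no filter, 0 with a filter of at least 6 arrays and 0 without the 3 arrays. That stricter filter left 6 members, of which 5 were called in C3H/HeJ. With only the groups compared in the fit, 1 member was called in C57BL/6J, 1 for C3H/HeJ minus A/J and 2 for untreated C3H/HeJ against C57BL/6J. Without the 3 arrays, 0 members were called in C57BL/6J and 0 for untreated C3H/HeJ against C57BL/6J, and the C57BL/6J effects turned to -0.20 for Ccl3, -0.36 for Ccl5 and 0.23 for Ccl24.

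Uncalled C57BL/6J effects changed sign with single arrays left out: Ccl3 from -0.23 to 0.59, Ccl11 from -0.30 to 0.22, Ccl17 from -0.0268 to 1.10 and Ccl24 from -0.67 to 0.0578. Ccl5 in C3H/HeJ ranged from -0.45 to 0.0059. Fewer arrays or genes enter several of these fits by construction, and the cause of the other changes was not tested. With the replicate number as a block, 7 members were called in A/J, 3 in C57BL/6J, 9 in C3H/HeJ and 3 for C3H/HeJ minus C57BL/6J, and no member's call changed, while Ccl12 (adjusted p = 0.0506) and Ccrl2 (adjusted p = 0.0587) lost theirs in C57BL/6J. Dim members (Ccl2, Ccl3, Ccl7, Ccl11, Ccl24) are limited by signal near the low end of the arrays, where the size of an effect follows the offset.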
